A study of Mus musculus with 16 samples.

Results

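The TNF superfamily ligands LIGHT (Tnfsf14), lymphotoxin α (Lta), lymphotoxin β (Ltb) and TNF (Tnf) and the receptors they share were followed in mouse blood neutrophils. The 9 genes, chosen by symbol as these ligands, their receptors Ltbr, Tnfrsf14 (HVEM), Tnfrsf1a and Tnfrsf1b, and the HVEM partner Btla, were all listed among the 23337 gene symbols of the count table, and 8 of them were among the 9213 symbols that passed the filter on low counts. Bulk RNA-Seq was performed on 16 libraries of neutrophils from 8 week old C57/Bl6 mice. Both genotypes carried loxP-flanked Ltbr alleles (Ltbr fl/fl). LTβRΔN mice also had the Mrp8-Cre transgene, in which the S100A8 promoter drives Cre and EGFP in neutrophils and part of their precursors, and controls were littermates without Cre. The controls thus lack the transgene as well as the deletion. Neutrophils had been enriched from blood with magnetic beads that remove other cells. The control group held 3 libraries labelled unstimulated and 4 labelled stimulated, and the LTβRΔN group 4 and 5, named below by the number that opens each library's label. The treatment protocol describes 2 h with TNF (100 ng/ml), IL-6 (50 ng/ml) and GM-CSF (100 ng/ml), with or without soluble LIGHT (500 ng/ml). No label says which single library received LIGHT, and the design text names the cytokines as the treatment. By these descriptions alone, the contrast between treatment labels may hold the cytokines, LIGHT or both. Genes used to check the labels are given below. The labels do not say whether libraries came from separate animals, and p-values measure the spread between libraries only.

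LIGHT is a membrane ligand that can be shed, and it binds LTβR as well as HVEM. Lymphotoxin α is secreted as a homotrimer that binds the TNF receptors, or is held at the membrane by lymphotoxin β as a heterotrimer that binds LTβR. TNF signals through TNFR1 (Tnfrsf1a), which carries a death domain, and TNFR2 (Tnfrsf1b), which does not. HVEM also binds BTLA, an inhibitory receptor of the immunoglobulin superfamily. All of these receptors except BTLA recruit TRAF proteins, TNFR1 through the adaptor TRADD, and LTβR is known for the organization of lymphoid tissue and for activating the alternative NF-κB pathway.

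Libraries held between 1094335 and 11932653 counts, and levels are given as CPM, counts relative to the TMM-scaled library total. Depth differed between the groups. The median total was 7726335 in unstimulated and 8255787.5 in stimulated control libraries, and 5183736.5 and 2408608 in the LTβRΔN libraries under the same labels. Neutrophil markers were abundant throughout, with 7 of 8 listed markers in the table and a summed level of 44416 to 74928 CPM. Cish, a target of GM-CSF signalling, was at 0.426 to 5.60 CPM in the 7 unstimulated and at 239.8 to 589 CPM in the 9 stimulated libraries, which separates the treatment labels. Nfkbia, the other gene set as a check of the labels, rose 32.0-fold in control and 28.8-fold in LTβRΔN neutrophils. The separate parts of the cytokines and LIGHT in these differences were not tested. Of the B cell markers, 5 of 6 in the table were at 0 in every library and the list summed to at most 1.60 CPM. T cell markers summed to 4.80 to 16.8 CPM, with Cd3e and Cd8b1 at 0 throughout but Cd3d present in all 16 libraries at 2.11 to 14.9 CPM, and NK cell markers summed to at most 0.140 CPM. Monocyte markers summed to 228 to 439 CPM, nearly all from Csf1r, with Ccr2 at most 1.39 CPM. Stimulated control library 82 stood apart with 194 CPM of summed platelet markers and 764 CPM of summed immature neutrophil markers. In a bulk library, fewer cells that express a gene and less RNA per cell cannot be told apart.

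Among the ligands, Tnf, Ltb and Lta were higher in stimulated than in unstimulated neutrophils of both genotypes, and Tnfsf14 was not called. Tnf, Ltb and Lta lie side by side on chromosome 17. In GENCODE M21 on GRCm38, Ltb spans 35194439 to 35196320 on the plus strand, Tnf 35199381 to 35202007 and Lta 35203165 to 35205351 on the minus strand, with 3060 bases between Ltb and Tnf and 1157 bases between Tnf and Lta. Tnfsf14 lies elsewhere on the same chromosome, from 57189492 to 57194177 on the minus strand. The promoter sequences of the 3 neighbouring genes are shown because these genes shared a direction between the labels. In single stimulated libraries Lta did not always follow the other genes. They come from the RefSeq promoter table for GRCm38, read 5′ to 3′ along each gene up to the last base before its start, and the capitals mark a match to the letters GGGNNNTTCC, a form of the κB site that NF-κB proteins bind.
Lta, chr17:35205352-35205601, minus strand: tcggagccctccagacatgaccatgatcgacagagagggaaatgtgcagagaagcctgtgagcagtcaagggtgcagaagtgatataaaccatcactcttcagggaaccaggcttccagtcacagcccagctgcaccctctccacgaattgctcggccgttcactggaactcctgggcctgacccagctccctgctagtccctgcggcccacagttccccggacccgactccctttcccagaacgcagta
Tnf, chr17:35202008-35202257, minus strand: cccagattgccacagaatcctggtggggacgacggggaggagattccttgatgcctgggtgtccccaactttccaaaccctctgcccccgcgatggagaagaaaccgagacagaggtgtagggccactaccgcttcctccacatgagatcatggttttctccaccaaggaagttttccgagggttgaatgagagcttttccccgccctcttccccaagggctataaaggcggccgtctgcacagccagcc
Ltb, chr17:35194257-35194438, plus strand: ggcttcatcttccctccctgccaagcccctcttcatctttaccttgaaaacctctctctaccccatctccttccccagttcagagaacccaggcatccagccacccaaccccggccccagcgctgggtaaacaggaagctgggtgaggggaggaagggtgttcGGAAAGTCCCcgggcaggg
The Ltb stretch is 182 bases long, since the GENCODE gene starts 68 bases before the RefSeq start. Both strands of the 250 bases before each of the 9 RefSeq starts were searched. GGGNNNTTCC was found in Ltb alone, on the strand opposite to the gene, at bases 87 to 78 before its start, and 4.65% of 32851 promoters hold it. The AP-1 letters TGANTCA, which read the same on both strands, were found in Tnfsf14 alone, at bases 160 to 154 before its start, and 6.75% of promoters hold them. A match is a description of the letters only, and other forms of these sites were not searched.

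Tnf, the founding cytokine of the family, had 2.05, 11.9 and 13.2 CPM in the unstimulated control libraries 71 to 73. It had 223, 151, 171 and 98.4 CPM in the stimulated control libraries 80 to 83. Values in LTβRΔN neutrophils were 10.4, 8.00, 19.7 and 10.3 CPM in the unstimulated libraries 67 to 70, and 109, 162, 137, 131 and 159 CPM in the stimulated libraries 75 to 79. The lowest stimulated value, 98.4 CPM, was above the highest unstimulated value, 19.7 CPM, over both genotypes. On the log2 scale Tnf rose by 4.19 in control neutrophils (SE 0.445, edgeR adjusted p = 4.60e-07), an 18.2-fold rise with a 95% interval of 9.60 to 34.5. The rise in LTβRΔN neutrophils was 3.50 (SE 0.385, edgeR adjusted p = 8.03e-07), an 11.3-fold rise with an interval of 6.48 to 19.6. Unstimulated control library 71, with 27 counts of Tnf in the largest library of the set, was the lowest of all 16.

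Ltb was the most abundant of the ligands and moved within a narrow range. It had 340, 336 and 370.0 CPM in unstimulated and 627, 636, 571 and 545 CPM in stimulated control libraries. LTβRΔN libraries had 344, 348, 348 and 368 CPM without and 469, 467, 582, 582 and 540.0 CPM with stimulation. The 7 unstimulated libraries stayed within 336 to 370.0 CPM, and the lowest stimulated library was above all of them. Ltb rose 1.71-fold in control neutrophils (interval 1.44 to 2.03, edgeR adjusted p = 1.24e-04) and 1.50-fold in LTβRΔN neutrophils (interval 1.29 to 1.75, edgeR adjusted p = 7.58e-04).

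Lta was at 0 counts in all 7 unstimulated libraries, where a count of 0 allows up to 0.103 CPM over the control and 0.126 CPM over the LTβRΔN libraries (3 counts of the summed totals, counting error only). The stimulated control libraries 80 to 83 had 1, 63, 72 and 71 counts, or 0.135, 14.9, 7.13 and 8.86 CPM. The stimulated LTβRΔN libraries 75 to 79 had 5, 78, 6, 10 and 0 counts, or 3.11, 9.65, 4.23, 4.49 and 0 CPM. Library 81, with the most Lta, also had the most Cd3d of all 16 libraries (14.9 CPM). Cd3d was present in the unstimulated libraries too, where Lta was at 0, and Cd3e and Cd8b1 were at 0 throughout. T cell markers summed to at most 16.4 CPM in unstimulated LTβRΔN and 16.8 CPM in stimulated control libraries. The part of T cells in the Lta values was not tested. Lta was detected in 8 of 9 stimulated libraries, and the libraries with 1 and 0 counts, 80 and 79, did not fall outside the range of depth of the others. Over the group, the pooled stimulated level was 67.6 times the level that 0 counts allow in unstimulated control neutrophils. The ratio was 49.5 in LTβRΔN neutrophils. These ratios leave out the spread between stimulated libraries, so they are no lower limits of the fold change. Library 76 supplied 78 of the 99 LTβRΔN counts, and without it the ratio was 21.3. Leaving out any other stimulated library gave ratios of 51.1 to 59.1 in LTβRΔN and 54.8 to 89.5 in control neutrophils. The edgeR adjusted p was 0.0165 in control and 0.0227 in LTβRΔN neutrophils. The call depended on single libraries: the adjusted p was 0.0826, 0.0807 and 0.0654 without unstimulated control library 71, 72 or 73. The LTβRΔN comparison gave 0.0663, 0.0649, 0.0870 and 0.0531 without library 67, 69, 70 or 76. The control call was also lost with a replicate block on the number in the column names, given with the alternatives below.

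Tnfsf14, the gene of LIGHT itself, was present in every library. It had 104 to 124 CPM (median 122) in unstimulated and 110 to 157 CPM (median 124) in stimulated control libraries, with 109 to 160 CPM (median 132) and 82.8 to 176 CPM (median 142) in the LTβRΔN libraries under the same labels. The groups overlapped. The stimulated-to-unstimulated ratio was 1.10 in control (interval 0.818 to 1.49, edgeR adjusted p = 0.933) and 1.04 in LTβRΔN neutrophils (interval 0.795 to 1.35, edgeR adjusted p = 0.968). Changes beyond 1.49-fold upward or to below 0.795 of the unstimulated level lie outside both intervals.

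**Figure D1:**
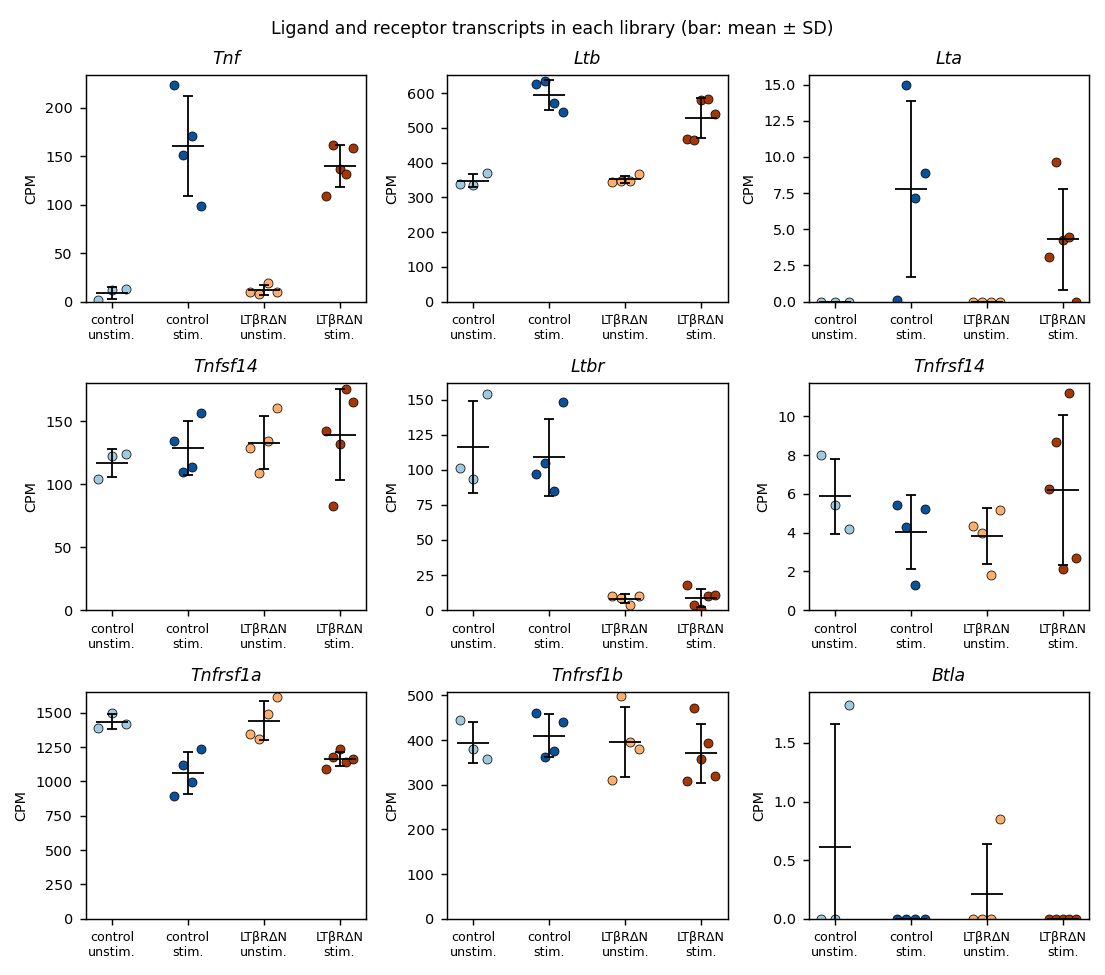
Level of each of the 9 genes in CPM (vertical axis, from 0) in the 16 libraries, by genotype and treatment label; points are libraries and bars are the mean ± SD. Tnf and Ltb are higher in every stimulated library than in any unstimulated one, Lta is at 0 in all 7 unstimulated libraries, Tnfrsf1a is lower in every stimulated library, and Ltbr is at or below 18.1 CPM in all 9 LTβRΔN libraries.

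Counted together, 3 of the 4 ligands rose with the stimulated label in control neutrophils and the same 3 rose in LTβRΔN neutrophils. With the receptors, 4 of 8 tested genes of the group were called in control neutrophils, where 3.48% of all 9213 tested genes were called, and 3 of 8 in LTβRΔN neutrophils, where 3.73% were. Lta, at 0 in every unstimulated library, passed the filter only through the stimulated ones, so its place in these counts is no separate support. In control neutrophils Tnf, Ltb and Tnfsf14 had log2 fold changes of 4.19, 0.77 and 0.14, against a median of −0.024 over all tested genes. In LTβRΔN neutrophils these ligands had 3.50, 0.58 and 0.053, against −0.028. The 4 receptors tested had a median of −0.27 in control and −0.050 in LTβRΔN neutrophils. Scaling by library totals alone moved the median of all genes to −0.27 in control neutrophils and turned the split of calls from 260 higher and 61 lower genes to 201 higher and 272 lower. In LTβRΔN neutrophils it moved the median to −0.21 and the split from 275 higher and 69 lower genes to 216 and 293. Relative to that median, Tnf, Ltb and Tnfrsf1a differed in control neutrophils by 4.21, 0.80 and −0.41 on the log2 scale, close to the 4.21, 0.79 and −0.41 under TMM.

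The sequencing index in the library names ran almost in parallel with the treatment label, since all 9 stimulated libraries carried S521 and 6 of 7 unstimulated libraries carried S520. The exception was unstimulated control library 73. On S521, this library had 13.2 CPM of Tnf against 98.4 to 223 CPM in the 9 stimulated libraries, 370.0 against 467 to 636 CPM of Ltb, and 1419 against 891 to 1237 CPM of Tnfrsf1a. Lta was at 0 counts in it and at 0 to 14.9 CPM in the others. It lay with the other unstimulated libraries for Tnf, Ltb and Tnfrsf1a, but it is a single library. With the index as a covariate, Tnf in control neutrophils stayed called at a log2 fold change of 3.61 (edgeR adjusted p = 0.00323). In that fit Ltb had 0.68 (edgeR adjusted p = 0.0635), Tnfrsf1a −0.42 (edgeR adjusted p = 0.466) and Lta an adjusted p of 0.511. In LTβRΔN neutrophils Tnf had 2.53 (edgeR adjusted p = 0.207) and Ltb 0.45 (edgeR adjusted p = 1), and no LTβRΔN library separates the index from the label.

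Among the receptors, Ltbr, the receptor for LIGHT and the lymphotoxin αβ heterotrimer, was the gene deleted in LTβRΔN mice. It spans 125306571 to 125313885 on the minus strand of chromosome 6. It had 101, 93.6 and 154 CPM in unstimulated and 97.0, 105, 84.6 and 148 CPM in stimulated control libraries. LTβRΔN libraries had 10.1, 8.80, 3.62 and 10.4 CPM without and 18.1, 3.71, 0.705, 10.3 and 10.5 CPM with stimulation. The highest LTβRΔN library was below the lowest control library under either label. Ltbr was lower by 3.80 on the log2 scale in unstimulated LTβRΔN neutrophils (SE 0.452, edgeR adjusted p = 1.09e-04) and by 3.71 in stimulated ones (SE 0.417, edgeR adjusted p = 3.83e-05). The mean left in LTβRΔN neutrophils was 7.07% of the control mean without and 7.95% with stimulation, and 3.12% to 8.94% and 0.648% to 16.6% in single libraries. The lowest of these, in stimulated library 77, rests on 1 count, and the highest, in stimulated library 75, on 29 counts. Counting error is therefore part of this spread. Counts per gene do not show which exons these reads came from, so intact transcripts of cells that escaped deletion and transcripts of the deleted allele cannot be told apart. Between treatment labels the ratio of Ltbr was 0.937 in control (interval 0.525 to 1.67, edgeR adjusted p = 0.983) and 0.993 in LTβRΔN neutrophils (interval 0.533 to 1.85, edgeR adjusted p = 0.997).

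Tnfrsf14, the gene of HVEM and the other receptor for LIGHT, was low, with 3 to 105 counts per library. It had 7.99, 5.44 and 4.21 CPM in unstimulated and 5.41, 4.27, 1.29 and 5.24 CPM in stimulated control libraries, and 4.33, 4.002, 1.81 and 5.19 CPM in unstimulated and 6.23, 8.66, 2.11, 11.2 and 2.71 CPM in stimulated LTβRΔN libraries. All groups overlapped. No comparison called it, and the intervals were wide, from 0.235 to 2.01 for the ratio between labels in control and from 0.604 to 4.36 in LTβRΔN neutrophils (edgeR adjusted p = 0.928 and 0.798). The ratio of LTβRΔN to control was 0.655 without stimulation (interval 0.221 to 1.94, edgeR adjusted p = 1) and 1.55 with it (interval 0.584 to 4.09, edgeR adjusted p = 0.965). At this depth the intervals leave room for changes of several fold in either direction.

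Btla, the inhibitory partner of HVEM, did not pass the filter. It had 13 counts in unstimulated control library 73, 10 counts in unstimulated LTβRΔN library 70 and 0 in the other 14 libraries. Over the 4 stimulated control libraries a count of 0 allows up to 0.101 CPM, and over the 5 stimulated LTβRΔN libraries up to 0.189 CPM. Cd160, another ligand of HVEM, was at 0 in all 16 libraries. The list of these HVEM and BTLA partners held 3 genes, of which 2 were tested. Between labels, 0 were called in control neutrophils, where 3.48% of all tested genes were called. In LTβRΔN neutrophils 1 was called, where 3.73% of all tested genes were. Ptpn11, a phosphatase that BTLA recruits, had 5.19 to 8.44 CPM in unstimulated and 6.99 to 13.0 CPM in stimulated control libraries. LTβRΔN libraries had 1.13 to 7.20 CPM without and 12.1 to 17.4 CPM with stimulation, and it rose there by 2.47 on the log2 scale (SE 0.581, edgeR adjusted p = 0.0120). In control neutrophils its log2 fold change was 0.39 (edgeR adjusted p = 0.933). The difference between these 2 responses was 2.08 on the log2 scale (interval 0.42 to 3.73) and was not called after adjustment over all tested genes. Ptpn11 had only 43 counts over the unstimulated LTβRΔN libraries. Ptpn6, the other phosphatase listed, had 1061 to 1245 and 879 to 1085 CPM in control and 1048 to 1358 and 976 to 1179 CPM in LTβRΔN libraries, with log2 fold changes of −0.24 and −0.21 (edgeR adjusted p = 0.461 and 0.405).

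Tnfrsf1a, the death domain receptor for TNF, was the most abundant receptor and the only one called between the labels, in control neutrophils. It had 1392, 1495 and 1419 CPM in unstimulated and 891, 1120, 996 and 1237 CPM in stimulated control libraries. LTβRΔN libraries held 1347, 1306, 1492 and 1617 CPM without and 1090, 1179, 1234, 1143 and 1162 CPM with stimulation. All 9 stimulated libraries were below all 7 unstimulated ones. Tnfrsf1a fell by 0.44 on the log2 scale in control neutrophils (SE 0.117, edgeR adjusted p = 0.0360), a ratio of 0.739 with an interval of 0.625 to 0.874. The value in LTβRΔN neutrophils was −0.31 (SE 0.103, edgeR adjusted p = 0.118), a ratio of 0.806 with an interval of 0.695 to 0.935, which did not pass the threshold. The call in control neutrophils depended on single libraries, as the adjusted p was 0.0830, 0.174, 0.0896, 0.156, 0.0526 and 0.107 without library 71, 72, 73, 80, 81 or 82. It held without library 83 (log2 fold change −0.52, edgeR adjusted p = 0.0122).

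Tnfrsf1b, the TNF receptor without a death domain, was level across the groups. It had 357 to 445 CPM (median 381) in unstimulated and 361 to 462 CPM (median 408) in stimulated control libraries, and 310 to 499 CPM (median 388) in unstimulated and 308 to 471 CPM (median 356) in stimulated LTβRΔN libraries. The ratio between labels was 1.04 in control (interval 0.821 to 1.31, edgeR adjusted p = 0.969) and 0.940 in LTβRΔN neutrophils (interval 0.763 to 1.16, edgeR adjusted p = 0.906).

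**Figure D2:**
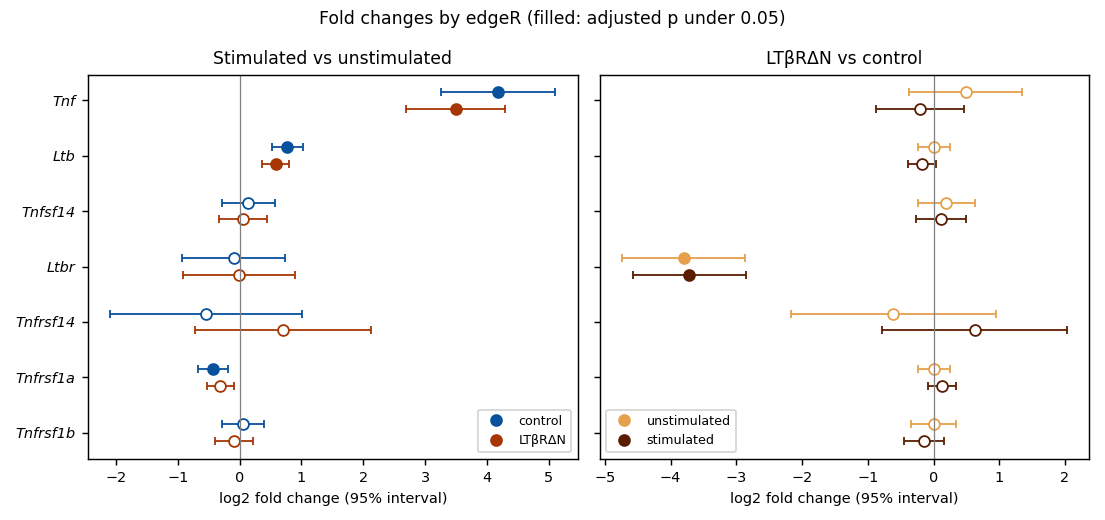
Log2 fold changes (horizontal axis) of 7 of the genes by edgeR with 95% intervals, for stimulated against unstimulated libraries in each genotype (left) and for LTβRΔN against control under each label (right); filled points have an adjusted p under 0.05. Tnf and Ltb lie to the right of 0 in both genotypes on the left, Tnfrsf1a is filled in control neutrophils only, at −0.44 against −0.31, and Ltbr alone is filled on the right, at −3.80 and −3.71. Lta, at 0 in the unstimulated libraries, has no bounded fold change and is not drawn.

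Levels of different genes were compared as CPM per kilobase of GENCODE exon. In unstimulated control neutrophils the order was Tnfrsf1a (554 ± 20.6, SD, n = 3), Ltb (230.0 ± 12.3), Tnfrsf1b (103 ± 11.96), Tnfsf14 (63.3 ± 5.92), Ltbr (49.4 ± 14.0), Tnf (5.52 ± 3.72), Tnfrsf14 (4.09 ± 1.34) and Lta (0). Libraries of neighbours in this order overlapped for Tnfsf14 and Ltbr, at 56.5 to 67.1 and 39.8 to 65.5 CPM per kilobase, and for Tnf and Tnfrsf14, at 1.25 to 8.05 and 2.93 to 5.55. The other neighbours did not overlap. Tnfrsf1a and Ltb were above 98.9% and 97.4% of the 8330 tested genes with an exon length, and Ltbr above 90.4%. In stimulated control neutrophils Tnf, at 98.1 ± 31.4 CPM per kilobase (SD, n = 4), stood beside Tnfrsf1b at 107 ± 12.7, and their libraries overlapped. Ltb, at 392 ± 28.9, then stood beside Tnfrsf1a at 410 ± 57.9, and those libraries overlapped too. In stimulated LTβRΔN neutrophils Ltb was at 348 ± 38.0 and Tnfrsf1a at 448 ± 20.2 (SD, n = 5), with ranges of 308 to 384 and 421 to 476 that did not overlap. Reads per kilobase depend on the gene model and on how reads were counted, so these orders are approximate.

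**Figure D3:**
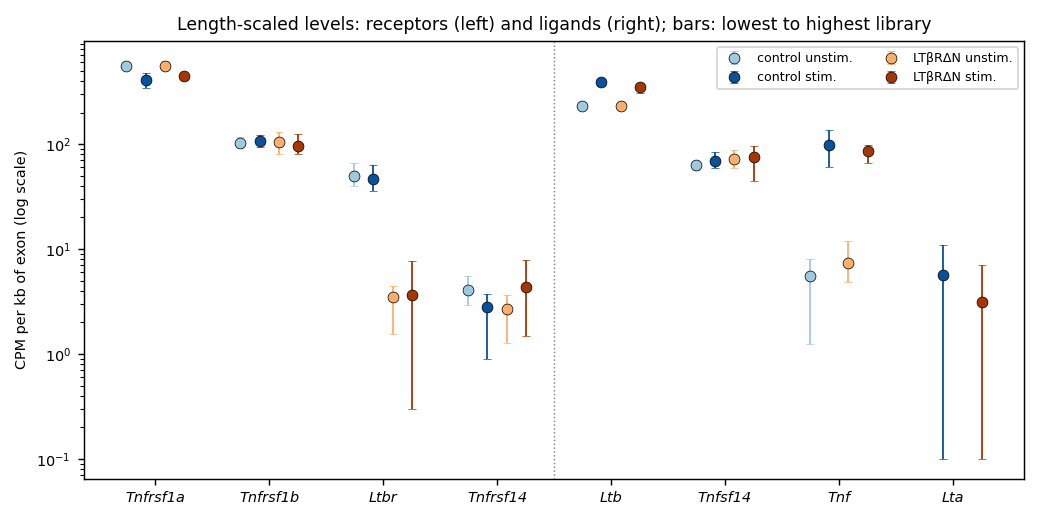
Level per kilobase of exon (vertical axis, log scale) of 4 receptors and 4 ligands in the 4 groups; points are group means and bars run from the lowest to the highest library. Tnf moves from 5.52 to 98.1 in control neutrophils and Ltbr from 49.4 in control to 3.49 in LTβRΔN neutrophils without stimulation. Lta has no point where every library is at 0, and its bar in stimulated LTβRΔN neutrophils ends at the foot of the axis because the lowest library is at 0.

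Loss of Ltbr was the only genotype difference called among the 8 tested genes, 1 of 8 under either label, where 0.0217% of the 9213 tested genes, 2 genes each, were called. The other gene called, named after its values were seen, was Ap1s1, which encodes a subunit of the AP-1 clathrin adaptor complex and was higher in LTβRΔN neutrophils by 3.32 on the log2 scale without and 3.25 with stimulation (edgeR adjusted p = 1.81e-07 and 1.95e-08). In stimulated neutrophils the ratio of LTβRΔN to control was 0.869 for Tnf (interval 0.547 to 1.38), 0.887 for Ltb (interval 0.765 to 1.03), 1.08 for Tnfsf14 (interval 0.828 to 1.41), 1.09 for Tnfrsf1a (interval 0.943 to 1.27) and 0.906 for Tnfrsf1b (interval 0.736 to 1.11), with edgeR adjusted p of at least 0.861. For Lta it was 0.566 (interval 0.111 to 2.88, edgeR adjusted p = 0.974). In unstimulated neutrophils the ratio was 1.403 for Tnf (interval 0.771 to 2.56) and 1.009, 1.15, 1.004 and 1.001 for Ltb, Tnfsf14, Tnfrsf1a and Tnfrsf1b, with edgeR adjusted p of 1. Lta, at 0 counts in both unstimulated groups, is counted among the 8 but could not have been called by genotype without stimulation. Without library 71 the log2 difference of Tnf in unstimulated neutrophils went from 0.49 to −0.020. The genotype comparisons share their libraries with the comparisons between labels.

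Whether the response to stimulation differed between genotypes was tested with the interaction term. It called 0 of 8 tested genes of the group and 0% of all genes. Over all genes, 342 of 9213 had an unadjusted p under 0.05, 0 of them among the 8, and DESeq2 also called 0 genes. The ratio of the response in LTβRΔN to that in control neutrophils was 0.620 for Tnf (interval 0.291 to 1.32), 0.879 for Ltb (interval 0.701 to 1.10) and 1.09 for Tnfrsf1a (interval 0.870 to 1.36), each with an edgeR adjusted p of 1. The fall of Tnfrsf1a was called in control and not in LTβRΔN neutrophils, but the test of that difference did not pass. Lta, counted among the 8, gives no interaction estimate, as both unstimulated groups are at 0, and could not have been called.

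The proteins that carry the signal of these receptors were described by a list of 24 TRAF, death domain, cIAP and NF-κB inducing adaptors, all of them tested. In control neutrophils 4 of 24 rose, 0 fell and 20 were not called, where 3.48% of all genes were called, with a median log2 fold change of 0.41 against −0.024 over all genes. In LTβRΔN neutrophils 5 rose, 0 fell and 19 were not called, where 3.73% of all genes were, with a median of 0.086. Traf1, a TRAF family member without a RING domain, had 0 to 5.19 CPM in unstimulated and 18.1 to 39.6 CPM in stimulated control libraries and rose by 3.68 on the log2 scale (edgeR adjusted p = 0.0289). Its levels in LTβRΔN libraries were 0 to 3.85 and 10.6 to 26.2 CPM, and it rose by 3.62 (edgeR adjusted p = 0.0203). Traf6, a ubiquitin ligase that also serves Toll-like receptors, had 8.70 to 17.3 and 41.0 to 97.0 CPM in control and 12.01 to 29.6 and 41.1 to 90.9 CPM in LTβRΔN libraries. It rose by 2.31 (edgeR adjusted p = 2.02e-04) and 1.45 (edgeR adjusted p = 0.00749). Neither gene overlapped between the labels.

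Birc3, the gene of cIAP2, had 136 to 180.1 and 236 to 351 CPM in control libraries and rose 1.76-fold (edgeR adjusted p = 0.0136). It had 135 to 203 and 202 to 330.1 CPM in LTβRΔN libraries, which overlapped at the edge, and rose 1.56-fold (edgeR adjusted p = 0.0336). Cflar, the gene of the caspase-8 inhibitor cFLIP, had 24.9 to 33.3 and 50.9 to 73.9 CPM in control libraries and rose 1.99-fold (edgeR adjusted p = 0.0106). It had 25.6 to 31.2 and 50.5 to 90.3 CPM in LTβRΔN libraries and rose 2.40-fold (edgeR adjusted p = 2.49e-04). Both proteins are known to restrain cell death downstream of TNFR1. Ripk1, the kinase that binds TNFR1 through its death domain, rose by 0.75 on the log2 scale in LTβRΔN neutrophils (edgeR adjusted p = 0.0420), from 41.8 to 58.5 CPM to 51.5 to 104.8 CPM. Its log2 fold change in control neutrophils was 0.35 (edgeR adjusted p = 0.659). By genotype, 0 of the 24 were called under either label, where 0.0217% of all genes were called, and the interaction called 0.

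Among other members of the superfamily, no gene was called. Of all tested genes, 3.48% were called between labels in control and 3.73% in LTβRΔN neutrophils, and 0.0217% by genotype under either label. In lists as small as those below, 0 called is near these shares. Of 14 other ligands, 10 were at 0 in every library, 3 were tested and 0 were called in any comparison. Of 24 other receptors, 9 were at 0 in every library, 10 were tested and 0 were called, with median log2 fold changes between labels of 0.086 in control and 0.24 in LTβRΔN neutrophils. Some were not level: Tnfrsf26, named after its values were seen, had 9.66 to 16.7 CPM in unstimulated and 23.0 to 69.5 CPM in stimulated control libraries, a ratio of 2.86 (interval 1.51 to 5.41, edgeR adjusted p = 0.0660). Tnfrsf23, named likewise, had 22.6 to 37.6 and 38.1 to 54.2 CPM in LTβRΔN libraries, a ratio of 1.57 (interval 1.11 to 2.21, edgeR adjusted p = 0.180). Of 7 listed genes that process TNF at the membrane, such as the sheddase Adam17, 5 were in the table, 3 were tested and 0 were called.

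Genes around the deleted receptor were examined because Tnfrsf1a lies 35476 bases from Ltbr, with the sodium channel gene Scnn1a 6773 bases away between them. Of 11 listed neighbours 9 were tested, and 0 were called by genotype under either label, where 0.0217% of all genes were called, with median log2 differences of −0.10 without and 0.13 with stimulation. Scnn1a, the nearest of them, had 277 to 330 CPM in control and 221 to 268 CPM in LTβRΔN libraries without stimulation, which did not overlap, and 236 to 348 and 217 to 279.7 CPM with it, which did. Its LTβRΔN to control ratio was 0.823 (interval 0.668 to 1.01, edgeR adjusted p = 1) and 0.825 (interval 0.687 to 0.992, edgeR adjusted p = 0.760). Tnfrsf1a was the only neighbour called in any comparison, lower with stimulation in control neutrophils, where 3.48% of all tested genes were called. Around Tnf, 9 of 10 listed genes were tested. Lta, Tnf and Ltb rose in both genotypes, where 3.48% (control) and 3.73% (LTβRΔN) of all tested genes were called between labels. Lta passed the filter only through the stimulated libraries, so its place in this count is no separate support. Its calls also depended on single libraries. The other 6 tested genes were not called in any comparison.

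**Figure D4:**
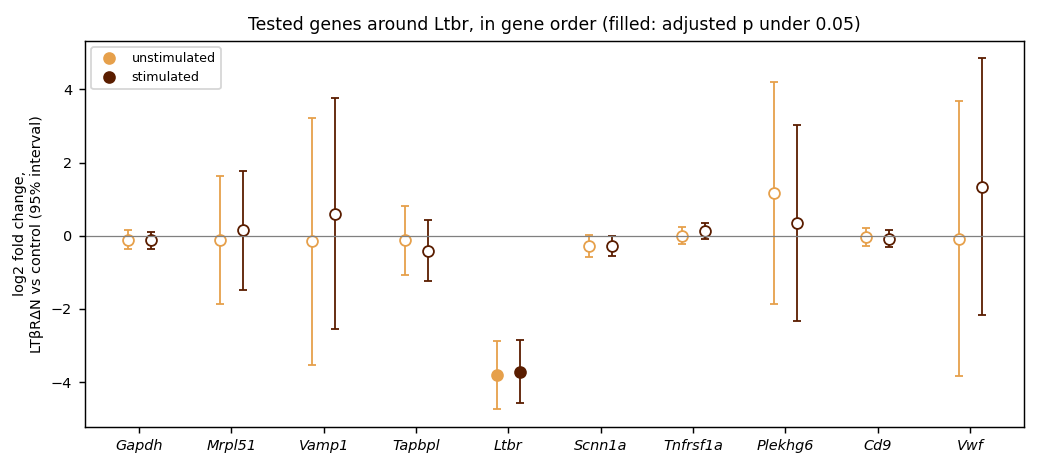
Log2 fold change of LTβRΔN against control (vertical axis) with 95% intervals for Ltbr and its 9 tested neighbours in their order on chromosome 6 of GRCm38, without and with stimulation; filled points have an edgeR adjusted p under 0.05. Ltbr is the only filled point, at −3.80 and −3.71, and Tnfrsf1a lies at 0.0063 without and 0.13 with stimulation.

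The genes most like each receptor or ligand were found by Pearson's correlation of log2 CPM over the 16 libraries, which share depth, label and index, and are given as a description. Tnf was most like F3 (0.978), Cdkn1a (0.970) and Nfkbiz (0.969), and Ltb most like Bcl2a1c (0.967), Bcl2a1b (0.962) and Marcksl1 (0.960). The Bcl2a1 genes are near-identical copies, so their separate counts are uncertain. Lta was most like Frmd4b (0.927), H2-Q8 (0.900) and Mrpl16 (0.896), and Tnfrsf1a most like AF251705 (0.908), Itprip (0.904) and Sertad3 (0.887). Ltbr, which differs between genotypes, was most like Slc17a9 (0.850), Btk (0.795) and Psmd12 (0.775). The highest values were 0.842 for Tnfsf14 with Rpl41, 0.865 for Tnfrsf1b with Cab39 and 0.842 for Tnfrsf14 with Bphl. Within the group, Tnf and Ltb correlated at 0.919, Tnf and Lta at 0.708, and Tnf and Tnfrsf1a at −0.797.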

How the data were processed

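Neutrophil RNA was sequenced with single-end reads, and the authors deposited 1 table of read counts per gene symbol, without normalization. The submitters' processing notes name Bowtie 1.0.0, TopHat 1.4.1, HTSeq 0.7.1 and mm10. The annotation and strand setting are not given in the sources used here, and the authors left out libraries that failed quality control. Libraries were grouped by the labels of genotype and treatment. Genes were kept by filterByExpr (minimum count 10, minimum total 15), which left 9213 of 23337 symbols. Counts of all 16 libraries entered one fit with edgeR 4.0.16 in R 4.3.3 (TMM factors, group means, quasi-likelihood test), with Benjamini-Hochberg adjusted p under 0.05 over all tested genes as the threshold. The members and gene lists were chosen with earlier results of these data known. Named genes are the 9 members, list genes called in any comparison, Cish and Nfkbia, and the 3 genes most correlated with each member. A small number of genes was added after their values were seen, namely Cd160, Adam17, Scnn1a, Ap1s1, Ptpn6, Tnfrsf23, Tnfrsf26 and the marker genes given as checks. Correlations used log2 CPM with a prior count of 2.

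On simulated counts for the stimulated against unstimulated control comparison, 18% of 200 genes changed 2-fold and 55.5% of those changed 4-fold were recovered among 8869 and 8912 genes, and 0% at 1.5-fold among 8877. For LTβRΔN against control with stimulation, 22% were recovered at 2-fold, 55% at 4-fold and 0% at 1.5-fold. Most changes of 2-fold or less between genotypes would thus not be called. No library repeated another: in 25 same-group pairs, chi-square per degree of freedom was 7.12 to 50.4. Symbols with a single place in GENCODE M21 made up 89.5% of the table. Alternatives were other scalings, other filters on low counts, only the compared groups, DESeq2 1.42.0, the index, a replicate block on the column-name number, another threshold, and leaving out each library in turn. Leaving out the 3 smallest libraries was chosen after seeing the data.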

Additional observations from a re-analysis of the deposited data

Results flagged for a closer look

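Within groups of 4 or 5 libraries, 2 of 48 sets of values held a library far from the others by Dixon's criterion, where chance gives about 1 in 20. Btla had 0.851 CPM in unstimulated LTβRΔN library 70 and 0 in the other 3 libraries of the group. With the others tied at 0, the ratio of the criterion is 1 whatever the value, so the chance rate does not apply to this set. Traf6 had 90.9 CPM in stimulated LTβRΔN library 77, and the next highest library of the group had 48.5 CPM.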

How the results depend on the processing

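Under the 11 alternatives that change the fit, the filter, the scaling or the threshold, Tnf in control neutrophils kept its call (log2 fold change 3.61 to 4.26), and Ltbr kept its genotype call in all 9 alternatives that test it (−3.85 to −3.67 with and −3.87 to −3.55 without stimulation). Requiring 10 counts in every library drops Ltbr from the test, which leaves 0 genes of the group called by genotype under either label. Fitting only the compared groups left 2 called in control neutrophils (Ltb and Tnf), and the index covariate left 1 there (Tnf) and 0 in LTβRΔN neutrophils, with 157 and 79 genes called in all, against 321 and 344. DESeq2 called 14 genes by genotype with stimulation against 2. Leaving out each library in turn gave 2 to 4 called genes of the group in control neutrophils. At an unadjusted p under 0.01, and with library totals only (edgeR adjusted p = 0.00313), Tnfrsf1a also passed in LTβRΔN neutrophils, and with all genes above 0 counts tested it did not in control neutrophils (edgeR adjusted p = 0.0528). Without the 3 smallest libraries, Lta lost its call in LTβRΔN neutrophils (edgeR adjusted p = 0.0999).

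The number in the column names is shared by 7 pairs of libraries of a genotype. Their deviations correlated at 0.021 to 0.069 over all genes and at 0.18 to 0.50 over the top 500. Over either set, 6 of 7 correlated best with their own number. With this replicate block, 324 genes were called in control and 343 in LTβRΔN neutrophils, and Lta lost its call in control neutrophils (edgeR adjusted p = 0.0616).

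Reversals concerned uncalled values. Between labels, in log2, Ltbr turned to 0.018 in control neutrophils with the block, and in LTβRΔN neutrophils to 0.0052 with DESeq2 size factors, 0.075 with only the compared groups and 0.049 with DESeq2. With library totals only, Tnfsf14 turned to −0.11 (control) and −0.12 (LTβRΔN) and Tnfrsf1b to −0.19 (control), and by genotype without stimulation Ltb to −0.039, Tnfrsf1a to −0.049 and Tnfrsf1b to −0.042. With the index, Tnfsf14 turned to −0.076 and Tnfrsf1b to 0.12 between labels in LTβRΔN neutrophils, Tnfrsf1a to −0.0018 and Tnfrsf1b to −0.065 by genotype without stimulation, and Ltbr to −0.17 in the interaction. With the block, Tnfsf14 turned to −0.033 in LTβRΔN neutrophils and Ltbr to −0.21 in the interaction. Without the 3 smallest libraries, Tnfsf14 turned to −0.011 and Tnfrsf1b to 0.13 in LTβRΔN neutrophils, Tnfrsf1b to −0.12 by genotype without stimulation, and Ltbr to −0.039 and Tnfrsf1b to 0.076 in the interaction. Leaving out single libraries, the ranges between labels were −0.28 to 0.16 (Ltbr) and −0.015 to 0.15 (Tnfrsf1b) in control, and −0.40 to 0.27 (Ltbr), −0.046 to 0.20 (Tnfsf14) and −0.20 to 0.032 (Tnfrsf1b) in LTβRΔN neutrophils. By genotype without stimulation they were −0.014 to 0.056 (Ltb), −0.020 to 0.87 (Tnf), −0.053 to 0.054 (Tnfrsf1a) and −0.12 to 0.11 (Tnfrsf1b), and in the interaction −0.30 to 0.37 (Ltbr) and −0.19 to 0.060 (Tnfsf14). The cause was not tested. Lta, Tnfrsf14 and Btla had the fewest counts of the 9 genes.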
